A study of Mus musculus with 6 samples.

Results

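The CCAAT/enhancer-binding proteins (C/EBPs) are a family of transcription factors, and the 6 mouse genes that carry the name, *Cebpa*, *Cebpb*, *Cebpd*, *Cebpe*, *Cebpg* and *Cebpz*, were taken by gene symbol from the 34745 genes of the deposited tables. All 6 were found. C/EBP proteins bind DNA as dimers that are held together by a leucine zipper, and they pair with each other and with zipper proteins of the ATF and AP-1 families. In blood formation they act in sequence along the myeloid path: C/EBPα is needed for the step from the common myeloid progenitor to the granulocyte-macrophage progenitor, C/EBPβ for granulocyte production under cytokine stress, and C/EBPε for the last steps of granulocyte maturation. In hematopoietic stem cells (HSCs) C/EBPα is kept below its level in granulocyte-macrophage progenitors, and the members can stand in for each other at part of their targets.

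The data are bulk RNA-seq of HSCs from the bone marrow of adult C57BL/6 mice, 3 WT and 3 *Med23*-deficient (KO) samples, and the comparison asks which genes depend on Med23, a subunit of the Mediator complex that links transcription factors to RNA polymerase II. HSCs were sorted as CD150+ CD34- CD48- cells of the LSK fraction (lineage-negative, Sca1-positive, cKit-positive). KO mice carried *Mx1-cre* and floxed *Med23* alleles, whereas WT controls were littermates with the floxed alleles and no Cre. *Mx1-cre* is driven by an interferon-inducible promoter and was switched on with poly(I:C), so deletion took place across the blood system and in other interferon-responsive cells. Poly(I:C) itself activates HSCs, and the methods do not state for the RNA-seq samples whether WT mice received it too or how long after it cells were taken. The methods name a TruSeq kit and the labels a SMART-Seq v4 amplification, and neither describes molecular identifiers, so intervals and floors given here cover counting error only.

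The depth, as the sum of counts on genes, was 4750410, 8131344 and 3537269 for WT replicates 1, 2 and 3. For the KO libraries it was 4760545, 5281232 and 5132601. *Med23*, the targeted gene, had 47.6, 70.8 and 24.1 normalized CPM, that is counts after scaling for the depth and makeup of each library, in WT and 31.6, 29.9 and 36.8 in KO, in the order of replicate numbers used throughout. The library labelled WT replicate 3 was thus lower at *Med23* than every KO library, and directions were also read without it. That library and KO replicate 3 also had 1 and 0 counts on 4 Y-linked genes, against at least 1036 in each of the others, and 4819 and 7853 counts on *Xist*, against 8 to 111. By these genes replicate 3 of each group read as female and the others as male, so fits without replicate 3 of both groups use the male libraries only. The ribosomal carry-over genes *Gm26917* and *Gm42418* took 18.1% of the counts of the library labelled WT replicate 3, the highest share of the libraries, against 6.11 to 11.96% elsewhere.

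The labelled cell type was read from marker lists. The 9 HSC markers *Kit*, *Ly6a*, *Slamf1*, *Procr*, *Hlf*, *Mecom*, *Fgd5*, *Hoxb5* and *Tek* all passed the filter on low counts. Their summed level was 1902, 2036 and 1971 normalized CPM in WT and 1747, 1667 and 1546 in KO, lower in every KO library, with *Kit* the most abundant per length. Of the 5 markers of other progenitors, *Cd48* had 10, 28 and 0 counts in WT and none in KO, and *Il7r* had none in any library. The most abundant per length were *Cd27*, with a log2 fold change of 0.30 and overlapping groups, and *Cd34*. *Cd34* had 1442, 2930 and 1109 counts in WT and 2565, 2112 and 2048 in KO, so its transcript was counted in cells sorted for absence of the surface protein. Markers of maturing neutrophils, the cells in which the secondary granule targets of C/EBPε are active, were near 0. The 13 genes summed to 3.08, 2.58 and 10.2 normalized CPM in WT and 3.65, 0.91 and 15.6 in KO, with *S100a9* the most abundant and 5 genes, *Ltf*, *Mmp8*, *Cd177*, *Fcnb* and *Itgb2l*, at 0 throughout.

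Lists of other cells were read by their summed level. The 9 macrophage genes summed to 7.79, 37.2 and 56.9 normalized CPM in WT and 20.1, 8.37 and 39.9 in KO, with *C1qa* and *C1qb* on top. Of the 4 past the filter 1 estimate was higher and 3 were lower in KO, with a median log2 fold change of -0.46 and overlapping groups. The genes under the filter went both ways: *Adgre1*, which encodes F4/80, had no counts in WT and 2, 11 and 20 in KO, whereas *Ccr2* had 106 and *Ly6c2* 28 counts in WT replicate 2 and at most 1 elsewhere, and *F13a1* had 0, 42 and 2 counts in WT and none in KO. The 9 lymphoid genes summed to between 0.246 and 16.0 CPM, led by *Cd4* and *Klrb1c*, with *Cd3e*, *Cd3d*, *Cd8a* and *Ncr1* at 0. The 8 erythroid genes summed to between 27.3 and 67.7 CPM, led by *Hbb-bt* and *Klf1*, and the 8 adipocyte genes to between 81.2 and 168.4 CPM, nearly all of it the widely expressed *Adipor2*, with *Fabp4* next per length and *Adipoq*, *Plin1*, *Cidec* and *Lep* at 0. The 12 skeletal muscle genes summed to 173.0, 114.7 and 303.5 CPM in WT and 5.27, 17.3 and 5.87 in KO (844, 933 and 982 against 26, 95 and 29 counts), with *Acta1* the most abundant. Of these, 10 passed the filter, and all 10 were lower in every KO library, where 6.15% of all genes tested were. *Acta1*, *Actc1*, *Des*, *Myh8*, *Myl1*, *Myog* and *Tnnc2*, with at most 1 count in any KO library, passed through WT alone. Their direction was thus set by the filter, and the share cannot be read against that of all genes. *Ckm* and *Tnnt1*, under the filter, overlapped between groups. *Acta1* had 158, 195 and 188 counts in WT and 1, 0 and 1 in KO, and *Actc1* had 104, 138 and 137 in WT and was not counted in KO. With 3 counts put in each KO library, the mean normalized CPM of *Actc1* was at least 45.8-fold lower in KO. *Des*, *Myh8*, *Myl1* and *Myog* had 47 to 108 counts in each WT library and none in KO; DESeq2 called all 4 (adjusted p from 3.0e-07 to 4.9e-05), and edgeR with the filter none. *Acta1* and *Actc1* were called in edgeR (adjusted p of 0.0043 and 0.025) and in DESeq2 (3.4e-09 and 3.2e-09). Without replicate 3 of both groups neither was called in edgeR (0.083 and 0.198), though the log2 fold change of *Acta1* was -7.89 there, against -7.94 with all libraries. Neither was called with limma on log2(FPKM + 1) without the filter, and *Actc1* was also not called with the replicate block (0.091) or in 5 of the 6 fits that left out a library. The part of that RNA in the results below was not tested.

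*Cebpa* encodes the factor that opens the granulocyte-macrophage path. It is a single-exon gene (ENSMUSG00000034957) on chromosome 7 from 35119293 to 35121928 (GRCm38, plus strand), and *Cebpg* (ENSMUSG00000056216, from 35046422 to 35056573, minus strand) is its neighbour, 62719 bases away. From *Cebpa* the WT libraries held 0, 1 and 0 counts, or 0, 0.123 and 0 normalized CPM. The KO libraries held 22, 19 and 7 counts, or 4.46, 3.46 and 1.42 normalized CPM. All KO libraries lay above all WT libraries, KO replicate 3 being the lowest of its group. A count of 0 allows up to 3 counts, or 0.615 and 0.927 CPM in WT replicates 1 and 3, which is still under the lowest KO value. Summed over libraries, 48 counts in KO against 1 in WT gave a ratio of 50.7 per normalized count, with an exact 95% counting interval from 8.68 to 2045 that leaves out the spread between samples.

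*Cebpa* was the only member whose groups did not overlap, and the only member that did not pass the filter on low counts. Among the 3349 genes with at least 10 counts in all that did not pass it, *Cebpa* included, every KO sample lay above every WT sample in 6.87%. The exact two-sided permutation test gave p = 0.1, the smallest value that 3 samples against 3 allow. In edgeR without the filter the estimate was 5.36 on the log2 scale (standard error 1.94, adjusted p = 0.67), and DESeq2 gave 5.48 (adjusted p = 0.20), so the difference did not pass over all genes. Such fitted values depend on the small count added to the zeros. On log2(FPKM + 1), which understates low genes, the difference was 0.70 (limma adjusted p = 0.41). In bulk RNA, more cells with the transcript and more transcript per cell cannot be told apart, and 1.42 to 4.46 CPM can be either.

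Promoter sequences from RefSeq (GRCm38.p6), 250 bases before to 50 after the start site, were found for 3 of the 6 members, *Cebpa*, *Cebpb* and *Cebpg*. They are shown because *Cebpa*, with 1 count in all of WT, stands beside members with more counts in the same libraries. The windows are chr7:35119043-35119342 on the plus strand for *Cebpa*, chr2:167688665-167688964 on the plus strand for *Cebpb* and chr7:35056517-35056816 on the minus strand for *Cebpg*, each printed 5′ to 3′. Capitals mark matches to TTGCG (the core of the C/EBP element), CCAAT (the CCAAT box), TGACG (the core of the cyclic AMP response element) and CACGTG (the E-box), searched on both strands, and to TATAA (the TATA box) on the printed strand.
Cebpa: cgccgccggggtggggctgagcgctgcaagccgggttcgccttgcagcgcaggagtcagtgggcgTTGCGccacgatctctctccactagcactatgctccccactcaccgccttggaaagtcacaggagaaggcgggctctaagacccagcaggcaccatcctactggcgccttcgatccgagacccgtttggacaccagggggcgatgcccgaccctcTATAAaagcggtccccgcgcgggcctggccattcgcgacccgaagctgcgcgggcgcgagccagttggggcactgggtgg
Cebpb: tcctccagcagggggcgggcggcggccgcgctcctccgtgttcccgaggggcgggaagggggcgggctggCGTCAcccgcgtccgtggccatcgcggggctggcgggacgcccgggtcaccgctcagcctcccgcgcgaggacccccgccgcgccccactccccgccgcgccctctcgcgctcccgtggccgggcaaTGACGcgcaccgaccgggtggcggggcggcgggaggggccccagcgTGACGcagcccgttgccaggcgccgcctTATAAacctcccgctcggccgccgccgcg
Cebpg: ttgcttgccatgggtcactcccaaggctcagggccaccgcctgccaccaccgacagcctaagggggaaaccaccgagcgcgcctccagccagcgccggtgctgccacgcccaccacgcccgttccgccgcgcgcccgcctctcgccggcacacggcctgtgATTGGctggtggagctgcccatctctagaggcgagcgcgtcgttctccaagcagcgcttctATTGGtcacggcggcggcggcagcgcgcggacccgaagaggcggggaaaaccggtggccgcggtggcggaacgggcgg

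The *Cebpa* window held a C/EBP core at -185 and a TATA box at -30 from the RefSeq start. *Cebpb* held the cyclic AMP core at -180 (as CGTCA), -53 and -7, and a TATAA run at +22. *Cebpg* held the CCAAT box in reverse (ATTGG) at -89 and -28 and none of the other motifs searched. No window held the E-box, and the marked matches shared no bases. The C/EBP core was present in 17.4% of all 32851 promoters of the same length, the CCAAT box in 37.4%, the cyclic AMP core in 20.8%, the TATA box in 17.5% and the E-box in 7.15%. These matches are letters in a window and say nothing of binding. The windows were 67.3, 80.7 and 71.7% G or C for *Cebpa*, *Cebpb* and *Cebpg*, against a median of 52.7% over all promoters.

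*Cebpb* encodes the factor of emergency granulopoiesis, which can take over from C/EBPα at many of its targets. The gene (ENSMUSG00000056501) is a single exon on chromosome 2 from 167688915 to 167690418. Its level was 15.8, 17.5 and 60.6 normalized CPM in WT, against 36.9, 31.9 and 23.1 in KO. The groups overlapped through the library labelled WT replicate 3 alone, which was the highest of the 6, while both other WT libraries were under the lowest KO value. The log2 fold change was -0.02 (standard error 0.54, edgeR adjusted p = 0.997), and without that library it was 0.88 (adjusted p = 0.75). The estimate was also positive without KO replicate 3 (0.15), with replicate number as a block (0.26) and with limma on log2(FPKM + 1) (0.26). It was negative when WT replicate 1, WT replicate 2, KO replicate 1 or KO replicate 2 was left out (-0.33 to -0.05), with upper-quartile scaling (-0.05) and with DESeq2 (-0.03), and no setting took it past the threshold.

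*Cebpd* encodes the acute-phase member, which is induced quickly by inflammatory cytokines and, in neutrophil precursors, takes part in granule gene expression. The gene (ENSMUSG00000071637) lies on chromosome 16 from 15887286 to 15891031. It had 22.8, 44.2 and 8.35 normalized CPM in WT and 36.7, 25.5 and 49.2 in KO. The lowest library was that labelled WT replicate 3, WT replicate 2 lay above 2 of the KO libraries, and the groups overlapped. The log2 fold change was 0.55 (standard error 0.56, edgeR adjusted p = 0.997), from 0.14 without the library labelled WT replicate 3 to 1.25 without WT replicate 2, and it turned to -0.10 without replicate 3 of both groups.

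*Cebpe* encodes the member of late granulocyte maturation, which drives secondary granule genes. The gene (ENSMUSG00000052435) has 2 exons on chromosome 14 from 54710360 to 54712174. It had 0, 43 and 0 counts in WT and 1, 19 and 34 counts in KO. Single libraries of both groups therefore held nearly all or nearly none of it. The groups overlapped: WT replicate 2 was the highest of its group and above KO replicate 2, and the 1 count of KO replicate 1 is under the 3 taken as detected, so its order against WT replicates 1 and 3 is not resolved. The log2 fold change was 0.91 (standard error 1.67, edgeR adjusted p = 0.997), and without WT replicate 2, with counts of 0 left in WT, the fit gave 7.06 (adjusted p = 0.82). It was 0.36 and 0.39 without WT replicates 1 and 3, 0.0048 without KO replicate 3 and -0.52 without replicate 3 of both groups. The biological coefficient of variation, the relative spread between replicates that edgeR estimates, was 1.35 for *Cebpe*, above that of 99.5% of the genes tested, where the median was 0.377. WT replicate 2 was at 5.28 normalized CPM, above the 0.615 and 0.927 CPM that a count of 0 allows in its group. In the libraries that held *Cebpe*, WT replicate 2 and KO replicates 2 and 3, the secondary granule list summed to 2.58, 0.91 and 15.6 CPM. The macrophage list summed to 37.2, 8.37 and 39.9 CPM there, and to 7.79, 56.9 and 20.1 in WT replicates 1 and 3 and KO replicate 1. *Mpo*, picked after its values were seen, had 0, 7 and 867 counts against 23, 0 and 14. The part of RNA from neutrophils, their precursors or other cells was not tested.

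*Cebpg* encodes a short member that lacks an activation domain and works by pairing, above all with ATF4. It had 7.38, 11.9 and 0.618 normalized CPM in WT and 5.47, 7.28 and 25.1 in KO. The library labelled WT replicate 3 held only 2 counts, under the 3 taken as detected, KO replicate 3 was the highest of all, and of the other libraries both of WT lay above both of KO. The log2 fold change was 0.90 (standard error 0.96, edgeR adjusted p = 0.997), and it was -0.07 without KO replicate 3 and -0.59 without replicate 3 of both groups. The coefficient of variation was 0.794, above that of 89.1% of genes tested. As *Cebpa* and *Cebpg* are neighbours, their values were set side by side: KO replicate 3 was the lowest KO library for *Cebpa* and the highest for *Cebpg*.

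*Cebpz* carries the family name but is not a leucine zipper protein; it is the mammalian relative of a yeast protein of large ribosomal subunit assembly. The gene (ENSMUSG00000024081) lies on chromosome 17 from 78919006 to 78937066 and shares 1301 bases with *Cebpzos* on the other strand, and since the strand setting of the counting is not stated, reads there cannot be told apart. *Cebpz* had 115.6, 104.0 and 33.7 normalized CPM in WT and 87.5, 86.8 and 46.7 in KO. Replicate 3 was the lowest library of each group, and the groups overlapped through it, since WT replicates 1 and 2 lay above every KO library. The log2 fold change was -0.20 (standard error 0.44, edgeR adjusted p = 0.997) and -0.57 without the library labelled WT replicate 3 (adjusted p = 0.79). It was -0.0161 without WT replicate 2, and its sign turned without WT replicate 1 (0.0897) and without KO replicate 3 (0.0441). *Cebpzos* had 87, 179 and 121 counts in WT and 102, 115 and 140 in KO.

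**Figure D1:**
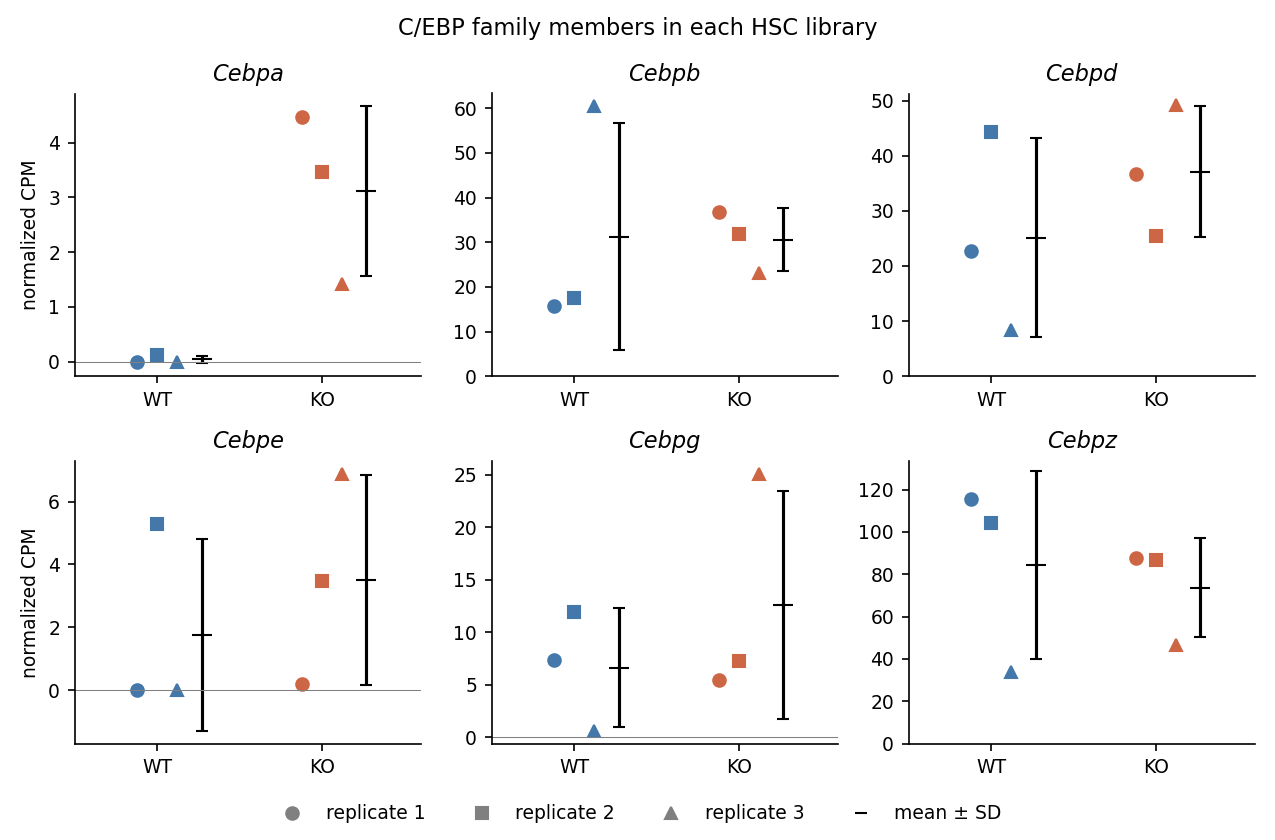
Normalized CPM of each C/EBP member (vertical axes, linear, a different range in each panel) in the 3 WT and 3 KO libraries; symbols give the replicate number and bars the mean ± SD of each group (n = 3). The groups are apart for *Cebpa* only, at 0 to 0.123 CPM in WT and 1.42 to 4.46 in KO, and WT replicate 3 is the highest WT library for *Cebpb* but the lowest for *Cebpd*, *Cebpg* and *Cebpz*.

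Over the family, 5 of the 6 members passed the filter and none was called in edgeR at an adjusted p under 0.05, where 9 of all 12513 genes tested, or 0.0719%, were called. DESeq2 called 149 genes, or 0.971% of those with an adjusted p, and no member. None of the 5 had every KO library above or every KO library below all WT libraries, against 6.25 and 6.15% of genes tested. The exact two-sided permutation p of these 5 was between 0.4 and 1.0. The standard errors, 0.44 for *Cebpz* to 1.67 for *Cebpe* on the log2 scale, leave room for sizeable differences in either direction, and a miss of the threshold does not show equal levels. The highest over lowest normalized CPM was 3.84 in WT and 1.598 in KO for *Cebpb*, 5.30 and 1.93 for *Cebpd*, 3.43 and 1.87 for *Cebpz* and 19.3 and 4.59 for *Cebpg*. The divisor of the 19.3 is the library labelled WT replicate 3, whose 2 counts are under the 3 taken as detected, so that value is not resolved. Without the library labelled WT replicate 3, a reading chosen after seeing the data, the WT values were 1.105, 1.94, 1.11 and 1.615. For *Cebpe* and *Cebpa*, with WT libraries at 0, only the KO values of 34.0 and 3.15 could be formed. The 34.0 divides by the 1 count of KO replicate 1, under the 3 taken as detected, so its size is not resolved.

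**Figure D2:**
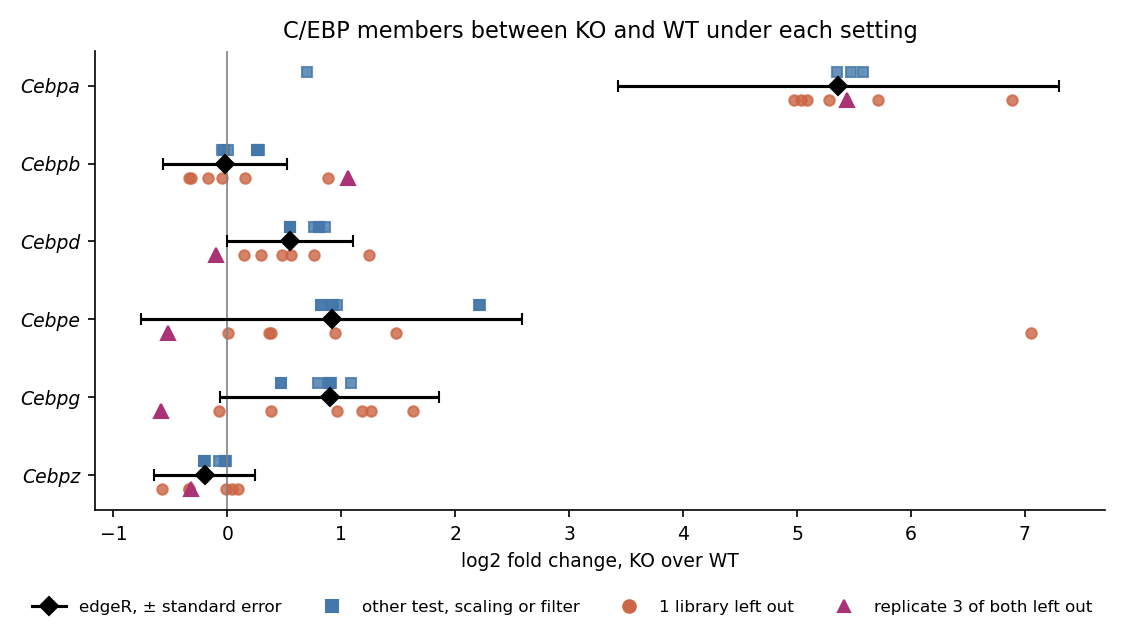
Log2 fold change of KO over WT (horizontal axis) for each member; diamonds with bars give the edgeR value ± its standard error (*Cebpa* from the fit without a filter), squares other tests, scalings and filters, circles fits with 1 library left out, and triangles fits without replicate 3 of both groups. *Cebpa* lies between 0.70 on log2(FPKM + 1) and 6.89 without WT replicate 2. Its groups do not overlap, so leaving out libraries could not turn its sign. *Cebpb* moves from -0.33 to 1.06 and *Cebpg* from -0.59 to 1.63.

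Levels of different genes were compared per length, in FPKM (counts divided by transcript length and by library total). In WT the means ± SD (n = 3) were 21.3 ± 15.6 FPKM for *Cebpd*, 20.8 ± 11.6 for *Cebpz*, 19.7 ± 14.8 for *Cebpb*, 1.42 ± 2.47 for *Cebpe*, 0.877 ± 0.751 for *Cebpg* and 0.0086 ± 0.0148 for *Cebpa*. In KO they were 31.6 ± 8.85 FPKM for *Cebpd*, 20.7 ± 5.44 for *Cebpb*, 18.5 ± 6.45 for *Cebpz*, 2.81 ± 2.59 for *Cebpe*, 1.63 ± 1.33 for *Cebpg* and 0.667 ± 0.348 for *Cebpa*. In both groups *Cebpd*, *Cebpb* and *Cebpz* formed an upper class that lay apart from *Cebpe*. They overlapped with one another in WT. In KO *Cebpb* overlapped with both others, while the minimum of *Cebpd* (22.5) was just above the maximum of *Cebpz* (22.3). *Cebpe* and *Cebpg* overlapped in both groups. *Cebpa* had the lowest mean in both and overlapped with *Cebpg* in KO. In WT its values were under those of *Cebpg*, but in the library labelled WT replicate 3 the genes had 0 and 2 counts, both under the 3 taken as detected, so their order there is not resolved.

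The place of *Cebpd* rests on the length behind its FPKM. The deposited values imply 1180 bases for *Cebpd*, where the exons in GENCODE M21 cover 3746, and 4787 bases for *Cebpa*, where they cover 2636. For *Cebpb* the implied and annotated length was 1504 bases in each case. With the M21 lengths, an alternative chosen after seeing the data, *Cebpb* came first in both groups, at 20.8 ± 16.9 CPM per kilobase in WT and 20.3 ± 4.65 in KO, and *Cebpd* came behind *Cebpz* at 6.71 ± 4.82 and 9.91 ± 3.16. In WT *Cebpd* then overlapped with *Cebpe*, with a minimum of 2.23 against a maximum of 4.26 for *Cebpe*. *Cebpa* stayed last in both groups.

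Because the leucine zipper members pair with each other, their share of the summed FPKM was read in each library. *Cebpb* and *Cebpd* together made up 96.9, 89.3 and 99.8% of the 5 zipper members in WT and 96.8, 90.5 and 86.2% in KO. *Cebpb* alone made up 34.1, 21.1 and 84.9% in WT and 42.7, 44.8 and 23.2% in KO. The FPKM ratio of *Cebpb* to *Cebpd* was 0.544, 0.310 and 5.70 in WT and 0.789, 0.981 and 0.368 in KO. With the implied lengths *Cebpd* was thus the larger share in 5 libraries, all but the library labelled WT replicate 3. With M21 lengths, chosen after seeing the data, the ratio was 1.73, 0.982 and 18.1 in WT and 2.50, 3.11 and 1.17 in KO, so that *Cebpb* was the larger in 5 libraries, all but WT replicate 2. Which of them is in excess thus depends on the length used. *Cebpa* contributed 0, 0.0467 and 0% in WT and 1.62, 1.53 and 0.447% in KO. With 3 counts in place of those seen, its share would be 0.416, 0.140 and 0.407% in WT, so KO replicate 3 is close to what counting allows there. All these shares depend on the lengths: with M21 lengths *Cebpb* and *Cebpd* together made up 92.7, 78.5 and 99.7% in WT and 92.4, 83.8 and 73.0% in KO, and *Cebpa* 0, 0.156 and 0% in WT and 4.55, 3.93 and 1.38% in KO.

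**Figure D3:**
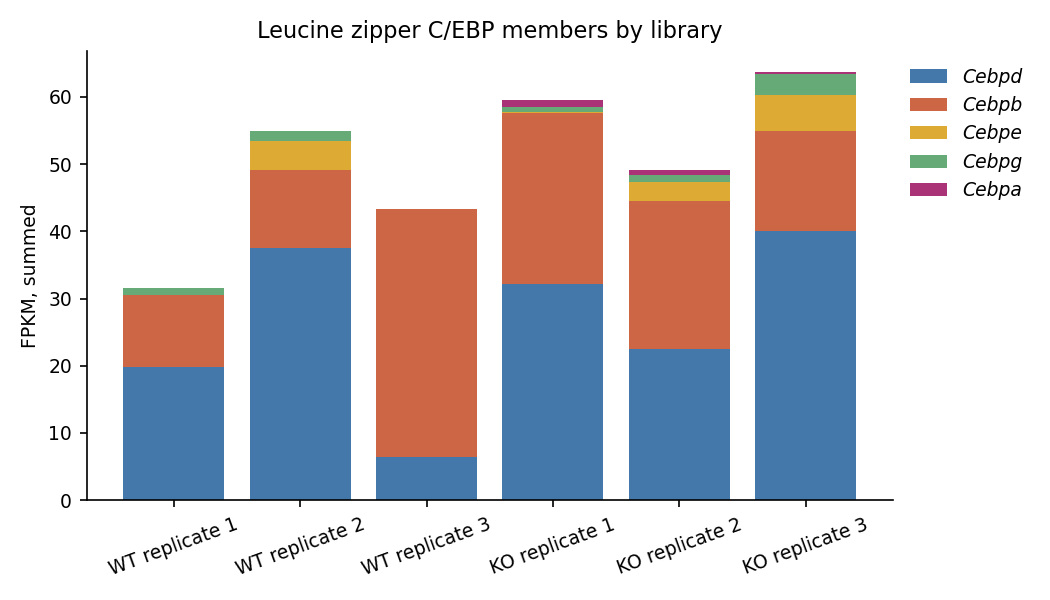
Summed FPKM (vertical axis, from 0) of the 5 leucine zipper C/EBP members in each library, stacked by member. The sum runs from 31.6 in WT replicate 1 to 63.7 in KO replicate 3, *Cebpb* and *Cebpd* take at least 86.2% in every library (73.0% with M21 lengths), and *Cebpb* takes 84.9% in WT replicate 3.

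On log2(CPM + 0.5) Pearson's r was 0.93 between *Cebpd* and *Cebpg*, 0.74 between *Cebpe* and *Cebpg* and 0.68 between *Cebpd* and *Cebpe*, and it was -0.78 between *Cebpb* and *Cebpg*, -0.70 between *Cebpb* and *Cebpz* and -0.66 between *Cebpb* and *Cebpd*. *Cebpa* had r between 0.12 and 0.44 with the other members. These values describe 6 libraries, among them the library labelled WT replicate 3, high for *Cebpb* and low for *Cebpd*, *Cebpg* and *Cebpz*. Over the 5 libraries without it, chosen after seeing the data, r was 0.69, 0.75 and 0.62 for the first 3 pairs and -0.35, -0.29 and 0.04 for the others. *Cebpz* went from 0.43 to -0.76 with *Cebpg*, from 0.49 to -0.62 with *Cebpd* and from 0.05 to -0.57 with *Cebpe*. *Cebpa* then had r of 0.99 with *Cebpb* and between -0.41 and 0.08 with the other members. Among genes past the filter, the patterns most like each member on the same scale were those of *Sesn1*, *Zfp174* and *Rab3gap2* for *Cebpa* (r of 0.99 each), *Sh3d21*, *Fam49a* and *Anxa6* for *Cebpb* (0.98, 0.97 and 0.97), and *Pcdhgb7*, *Cdc7* and *Chst11* for *Cebpd* (0.998, 0.99 and 0.99). For *Cebpe* they were *Cxcl2*, *Gm42913* and *Zfp511* (0.99 each), for *Cebpg* *Arfrp1*, *Ankrd33b* and *4931422A03Rik* (0.98 each), and for *Cebpz* *Fto*, *Riok1* and *Acadvl* (0.996, 0.996 and 0.99). With 12512 genes searched over 6 libraries, values this high occur for many genes, and 111 genes were above 0.95 for *Cebpz* and 17 for *Cebpb*.

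C/EBP function also depends on partners and on turnover, and the Tribbles proteins Trib1 and Trib2 bring C/EBPα to degradation through the ligase Cop1; Trib3 is a related protein that does not. Of 17 genes of zipper partners, Tribbles proteins and Cop1, 16 were found by gene symbol and *Cop1* was not, so it was not read. Of these 16, 14 passed the filter and none was called in edgeR. Of the 14, 1 was higher and 2 were lower in every KO library, where 6.25 and 6.15% of all genes tested were. The median log2 fold change was -0.09, against -0.01 over all genes. *Trib2* had 36, 19 and 15 counts in WT and 212, 165 and 115 in KO. *Trib3* had 174, 320 and 203 counts in WT and 27, 87 and 62 in KO. The groups lay apart for both genes, in opposite directions. The log2 fold change was 2.75 for *Trib2* (standard error 0.57) and -2.02 for *Trib3* (standard error 0.49), with edgeR adjusted p of 0.21 and 0.35 and DESeq2 adjusted p of 0.00074 and 0.0100. *Trib1*, which acts on C/EBPα in the same way as *Trib2* and was picked after its values were seen, had 97, 189 and 37 counts in WT and 61, 26 and 7 in KO, with overlapping groups (log2 fold change -1.56, standard error 0.77, edgeR adjusted p = 0.92). *Cebpa* and *Trib2* were thus both higher in every KO library, and KO replicate 3 was the lowest KO library for both.

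*Atf4*, the partner of C/EBPγ in the amino acid response, was at 119.1, 96.4 and 109.1 normalized CPM in WT and at 63.4, 72.1 and 86.4 in KO, with no overlap (log2 fold change -0.55, standard error 0.25, edgeR adjusted p = 0.88). Of 17 stress response genes driven by *Atf4*, 15 passed the filter and none was called in edgeR. Of these 15, 4 were lower and none higher in every KO library, against 6.15 and 6.25% of all genes tested. *Atf3*, which did not pass the filter and was picked out after its values were seen, was higher in every KO library, with 1, 6 and 1 counts in WT and 8, 22 and 6 in KO. The median log2 fold change of the 15 was -0.24. The lower genes were the serine synthesis enzymes *Phgdh* (-0.53) and *Psat1* (-0.49), the mitochondrial *Shmt2* (-0.44), which moves one-carbon units, and the glycyl-tRNA synthetase *Gars* (-0.37), each with an edgeR adjusted p of at least 0.77. *Cebpg* itself overlapped between groups in the same libraries. The AP-1 partners *Jun* and *Junb*, the most abundant of the partner list per length, had log2 fold changes of 0.10 and 0.09, and their sign changed when single libraries were left out.

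Among 18 transcription factors that act with or upstream of C/EBP proteins, 16 passed the filter and none was called in edgeR. In 3 of them every KO library lay above every WT library and in none below, against 6.25 and 6.15% of all genes tested, 14 of 16 estimates were higher in KO, and the median was 0.29, against 49.5% higher estimates over all genes tested. These 3 were *Hoxa9* (0.46, standard error 0.23), *Id2* (1.28, standard error 0.51) and *Irf8* (2.42, standard error 0.69). With single libraries left out, *Irf8* ran from 1.996 without WT replicate 1 to 3.76 without WT replicate 2. *Id2*, an inhibitor of basic helix-loop-helix factors, was at 9.64, 9.71 and 7.11 normalized CPM in WT and at 19.9, 14.6 and 29.9 in KO. *Irf8*, the monocyte factor that binds C/EBPα and restrains its activity, was at 3.49, 23.6 and 5.25 CPM in WT and at 89.1, 34.0 and 54.0 in KO. The edgeR adjusted p was 0.93, 0.79 and 0.47 in the same order, and DESeq2 called *Irf8* (adjusted p = 0.032). *Spi1* and *Fli1*, the most abundant per length, had log2 fold changes of 0.31 and 0.26. *Spi1* encodes PU.1, which acts with C/EBP proteins at myeloid promoters, and its groups overlapped.

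Target genes known to be driven by C/EBP factors were read as well. Of 11 receptor and monocyte genes, 8 passed the filter, none was called in edgeR, and the median was 0.02, with 1 gene higher and 1 lower in every KO library, against 6.25 and 6.15% of all genes tested. *Itgam* (CD11b) was at 4.92, 0.737 and 12.1 normalized CPM in WT and at 79.8, 79.2 and 73.7 in KO (log2 fold change 3.80, edgeR adjusted p = 0.18, DESeq2 adjusted p = 1.2e-05). *Il6ra*, a chain of the interleukin-6 receptor, was at 43.5, 35.3 and 42.3 CPM in WT and at 16.2, 10.6 and 23.5 in KO (log2 fold change -1.27, edgeR adjusted p = 0.62, DESeq2 adjusted p = 0.17). Both were apart between the groups, in opposite directions. *Csf3r*, the G-CSF receptor and a textbook C/EBPα target picked after its values were seen, had 510, 1364 and 220 counts in WT and 723, 593 and 562 in KO, with overlapping groups (log2 fold change 0.11, standard error 0.32). *Csf3r* was counted in the WT libraries in which *Cebpa* had at most 1 count, and its dependence on any C/EBP member was not tested. *Lyz2* and *Csf2ra*, the most abundant of the list per length, had log2 fold changes of -0.08 and -0.12.

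A list of 10 genes of myeloblasts and promyelocytes held primary granule enzymes and other genes. Of these 10, 6 passed the filter, none was called in edgeR, and the median was -0.19. The 2 higher estimates were those of the granule enzymes *Mpo* (5.24, standard error 2.38, overlapping groups) and *Prtn3*. The 4 lower ones were *Nkg7* (-0.88), *Cst7* (-0.66), *Plac8* (-0.22) and *Srgn*, so the median does not stand for the granule enzymes. *Prtn3* (proteinase 3) was the only gene of the 6 higher in every KO library, against 6.25% of all genes tested, and none was lower in every KO library. It was at 83.0, 141.3 and 86.5 normalized CPM in WT and 304.5, 307.2 and 355.3 in KO (log2 fold change 1.63, standard error 0.25, edgeR adjusted p = 0.065, DESeq2 adjusted p = 3.1e-06). *Mpo* (myeloperoxidase), chosen after its values were seen, had 23, 0 and 0 counts in WT and 14, 7 and 867 in KO. *Elane* (neutrophil elastase), chosen likewise, had 6, 0 and 10 counts in WT and 1, 4 and 115 in KO. KO replicate 3 thus held most *Mpo* and *Elane* and had the fewest *Cebpa* counts of the KO libraries. It was also the highest library for *Cebpd*, *Cebpe* and *Cebpg*. *Srgn*, with *Prtn3* the most abundant of the list, had a log2 fold change of -0.15. Of the 13 secondary granule genes, targets of C/EBPε, only *S100a9* passed the filter, with 10, 19 and 13 counts in WT and 7, 0 and 17 in KO, and *S100a8* had at most 12 counts in any library.

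*Cebpz* was set beside 20 ribosome assembly and nucleolar factors, not all of them specific to the large subunit, and all passed the filter. None was called in edgeR, 16 of 20 estimates were lower in KO, against 50.5% over all genes tested, and the median was -0.22. *Noc3l*, the homolog of another yeast nucleolar complex protein, was the only gene of the list apart between groups, 1 of 20 against 6.15% of all genes tested that were lower in every KO library, at 36.3, 55.1 and 29.4 normalized CPM in WT and 22.5, 26.6 and 21.3 in KO (log2 fold change -0.78, standard error 0.38, edgeR adjusted p = 0.92). *Rrp1* and *Npm1*, the most abundant per length, had log2 fold changes of 0.13 and -0.05.

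**Figure D4:**
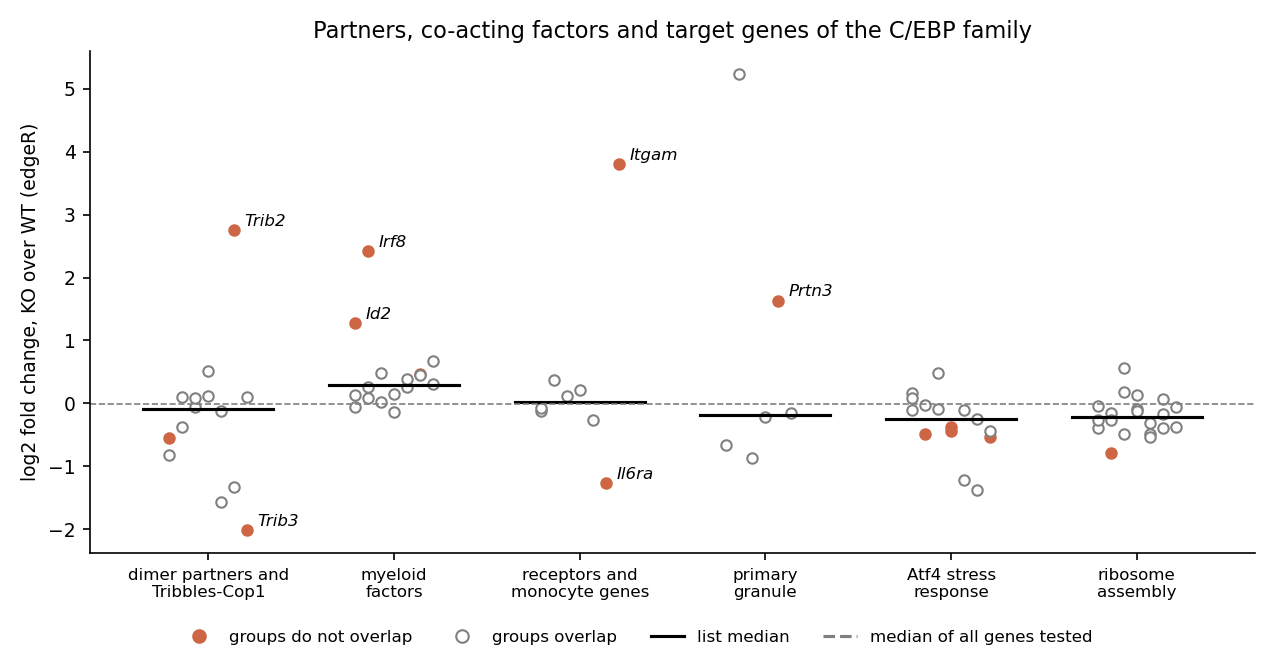
Log2 fold change of KO over WT from edgeR (vertical axis) for the genes past the filter in 6 lists of C/EBP partners, co-acting factors and targets; filled points are genes whose 3 KO and 3 WT values do not overlap, bars the list medians, and the dashed line the median of all genes tested (-0.01). Of the filled points, *Trib2*, *Irf8*, *Id2*, *Itgam* and *Prtn3* lie above 1 and *Trib3* and *Il6ra* below -1, and the list medians run from -0.24 to 0.29.

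Within the HSC list itself, the background on which the family was measured, no gene was called in edgeR and the median was -0.35. *Kit*, *Ly6a* and *Hlf* were lower and *Mecom* was higher in every KO library, with log2 fold changes of -0.38, -0.78, -0.81 and 0.61, against 6.15 and 6.25% of all genes tested. *Procr*, with *Kit* the most abundant per length, had a log2 fold change of 0.13, with overlapping groups. *Cd34* was also higher in every KO library (0.40, edgeR adjusted p = 0.92). Their part in the values of the C/EBP members was not tested.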

How the data were processed

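Bulk RNA-seq of 3 WT and 3 KO samples was used; groups and replicate numbers come from the labels. The authors deposited raw counts per gene and FPKM values for 34745 genes. The submitters' processing notes name TopHat, HTSeq and mm10 without versions; the annotation and strand setting are not given in the sources used here. ATAC-seq libraries were not analysed here. The count table was fitted with edgeR 4.0.16 in R 4.3.3 (filterByExpr, TMM, robust quasi-likelihood test, Benjamini-Hochberg adjustment at 0.05), tested on simulated data. Coordinates are from GENCODE M21. The alternatives were DESeq2 1.42.0, upper-quartile scaling, no filter, the replicate number as a block, limma 3.58.1 on log2(FPKM + 1) and log2(FPKM + 0.1) with or without a minimum mean FPKM of 1, and libraries left out. For *Cebpa*, with 1 count in WT, a ratio with its exact counting interval is given in place of a bound. A symbol under several identifiers went to the one with most counts.

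The members and the gene lists were chosen with earlier results of these data known. A marker of the list for HSCs is not reported here, and its list was computed without it. In each list the named genes are those past the edgeR threshold, up to 4 more with the largest difference among those without overlap between groups, and the 2 most abundant per length; markers of HSCs and of other cells are also named as a check of the label, and the text says where another gene was picked after its values were seen. Genes like a member are the 3 with the highest Pearson's r. Replicate 3 of each group read as female and the others as male, so it came from other animals than they did. Nothing says that the remaining samples of a group came from separate animals, so p-values measure the spread between these samples. 3 counts, taken as the smallest detected signal, are 0.369 to 0.927 CPM.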

Additional observations from a re-analysis of the deposited data

How the results depend on the processing

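No C/EBP member passed the threshold under any alternative run. *Cebpa* was higher in KO in every fit, with log2 fold changes from 4.97 to 6.89 when libraries were left out without a filter. As its groups do not overlap, leaving out libraries could not turn the sign, and the size rests on at most 1 count in WT. For *Cebpb* the sign turned from -0.02 to 0.0047 without a filter, to 0.26 and 0.28 with limma on log2(FPKM + 1) and log2(FPKM + 0.1), and to 1.06 without replicate 3 of both groups; leaving out single libraries gave -0.33 to 0.88. Without replicate 3 of both groups the values were -0.10 for *Cebpd*, -0.52 for *Cebpe* and -0.59 for *Cebpg*. Leaving out single libraries gave 0.14 to 1.25 for *Cebpd*, 0.0048 to 7.06 for *Cebpe*, -0.0728 to 1.63 for *Cebpg* and -0.57 to 0.0897 for *Cebpz*. The cause of these turns was not tested.

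The count of genes called was 9 with edgeR, 149 with DESeq2, and 15 and 1 with limma on log2(FPKM + 1) with and without the filter; leaving out single libraries gave 5 to 11. With the replicate block 5 genes were called, *Cebpb* was at 0.26 and *Jun* at -0.15, and no call on a C/EBP member changed. Deviations of same-numbered samples from their group means correlated at 0.17, 0.03 and 0.17 for numbers 1 to 3. Those of differently numbered samples correlated at -0.17 to 0.03. Numbers 1 and 3 thus lay above all differently numbered pairs and number 2 did not, and replicate 3 of both groups read as female. Whether the numbers pair the samples is not settled by these values. The main fit did not pair them, and the replicate block did.

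In the order of levels in WT, 4 of 6 members kept their rank with CPM per kilobase of the implied length and 4 with M21 lengths, an alternative chosen after seeing the data, and 1 to 6 with a library left out; in KO, 3 kept it with M21 lengths.

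Among other named genes, *Jun* was at -0.0905 and -0.0956 with limma on the FPKM scales, -0.61 without replicate 3 of both groups and -0.35 to 0.56 with a library left out. *Junb* was at -0.0033 without replicate 3 of both groups. *Npm1* was at 0.0313 on log2(FPKM + 1) and 0.0323 on log2(FPKM + 0.1) and *C1qa* at 0.51 on log2(FPKM + 0.1). With a library left out, *Junb* ran from -0.0745 to 0.30, *Csf2ra* from -0.29 to 0.0395, *Srgn* from -0.77 to 0.35, *Npm1* from -0.27 to 0.22, *Rrp1* from -0.0513 to 0.34, *Hbb-bt* from -0.20 to 0.51 and *Adipor2* from -0.0857 to 0.42. DESeq2 called *Trib2*, *Trib3*, *Irf8*, *Itgam*, *Prtn3*, *Des*, *Myh8*, *Myl1* and *Myog*, which edgeR with the filter did not; *Des* was also called in edgeR without the filter (0.019) and *Myog* in limma on log2(FPKM + 1) with the filter (0.032). For *Prtn3* the edgeR adjusted p was 0.021 without the filter and 0.034 without WT replicate 2, and limma on log2(FPKM + 1) with the filter called *Prtn3* (0.039) and *Itgam* (0.025). *Actc1* was not called with the replicate block (0.091), and neither *Actc1* (0.198) nor *Acta1* (0.083) without replicate 3 of both groups. At these depths 3 counts are 0.369 to 0.927 CPM, and the values of *Cebpa* and *Cebpe* rest on 0 to 43 counts in a library.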
